A study of Mus musculus with 9 samples.

Results

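Heat shock genes of the cytosol and the mitochondria were followed across B16-F10 melanoma tumours: Hspa1a, Hspa1b, Hspa8, Hsph1, Dnajb1, Hsp90aa1, Hsp90ab1, Hspb1, Hspd1 and Hspe1. They were taken by symbol from the deposited count tables, 10 of 54532 entries. Of the 10 genes, 10 passed the filter on low counts.

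The series holds bulk RNA-seq gene counts of tumours that the melanoma cell line B16-F10 formed under the skin of C57BL/6 mice, taken on day 16. The cells carried hairpin 1 against Fbxo38 (shFBXO38#1, 3 libraries), hairpin 2 against Fbxo38 (shFBXO38#2, 3 libraries) or a control hairpin (shcontrol, genotype given as WT, 3 libraries), so every group carried a short hairpin RNA, and all are labelled as untreated. The product of Fbxo38 is an F-box protein, which picks the substrates of a cullin-based ubiquitin ligase. A tumour also holds host cells, and the labels do not say whether libraries came from separate animals, so p-values cover only the spread among these libraries, which may be technical.

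Heat shock proteins are chaperones that bind unfolded proteins, help them fold and keep them from aggregating. When unfolded protein accumulates, the transcription factor HSF1 forms trimers and binds heat shock elements, which are arrays of inverted GAA units, and the inducible members are then made on top of the constitutive ones. Tumour cells are known to depend on HSF1 and on HSP90, which stabilises many kinases.

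Library totals ran from 15322163 to 17342554 counts, and the 10 genes together took 0.974% to 1.38% of the counts of a library. Mitochondrial transcripts took 2.12% to 6.29% and globin transcripts 0.0429% to 2.04%. Replicate 1 of the libraries labelled hairpin 1 (60.6) and replicate 2 of hairpin 2 (-54.8) stood apart on the first principal component (35.8% of the variance). Melanoma markers were abundant in every library, with 7 of 7 detected and summed levels of 21560 to 25840 CPM in the libraries labelled hairpin 1, 20470 to 25710 CPM in hairpin 2 and 21370 to 26930 CPM in control. Here CPM is the count scaled by the TMM-scaled library size. Fbxo38 itself had 35.1, 21.0 and 22.03 CPM in the libraries labelled hairpin 1, 21.0, 11.4 and 11.9 CPM in hairpin 2, and 21.7, 31.3 and 30.8 CPM in control. It was lower in each hairpin 2 library than in each control library, with a log2 fold change of -0.92 ± 0.29 (SE, edgeR adjusted p = 0.254), and the libraries labelled hairpin 1 overlapped control (-0.10 ± 0.28, edgeR adjusted p = 1). For that reason the first group is called by its label.

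The genes differed widely in level. Per transcript length (counts over the longest coding transcript, scaled to TPM), the constitutive cytosolic chaperones Hsp90ab1 (3858 ± 526 TPM, SD over 9 libraries) and Hspa8 (3543 ± 524 TPM) were highest. They ranked 22 and 25 among the 14109 tested genes with a transcript length. Hsp90aa1 stood at 1350 ± 246 TPM, and the mitochondrial pair Hspd1 and Hspe1 at 1137 ± 157 and 744 ± 88.7 TPM. Hsph1 (230 ± 91.5 TPM), Dnajb1 (73.5 ± 13.7 TPM) and Hspa1b (49.1 ± 15.8 TPM) came next, and Hspb1 (20.1 ± 10.5 TPM) and Hspa1a (3.70 ± 1.91 TPM, rank 10777) were lowest. Hspa1a and Hspa1b are near-identical in their coding parts. How reads that fit both were counted is not given, so their levels may be too low. Of the neighbours in this order, 2 pairs had ranges over the libraries that did not overlap. These were Hspa8 and Hsp90aa1 (2599 to 4139 TPM and 985 to 1729 TPM) and Hspe1 and Hsph1 (632 to 896 TPM and 95.4 to 340 TPM). The ranges of the other 7 neighbouring pairs overlapped. Within every library, however, Hspd1 exceeded Hspe1, Hsph1 exceeded Dnajb1, Dnajb1 exceeded Hspa1b, Hspa1b exceeded Hspb1 and Hspb1 exceeded Hspa1a. In replicate 3 of control, Hsp90ab1 lay below Hspa8 (3670 and 3717 TPM) and Hsp90aa1 below Hspd1 (1193 and 1194 TPM). The genes that varied most between libraries were among the 5 lowest in the order. The highest library exceeded the lowest 9.46-fold in CPM for Hspb1, 4.88-fold for Hspa1a, 3.19-fold for Hsph1 and 3.08-fold for Hspa1b, but 1.66-fold for Dnajb1 and 1.31-fold to 1.47-fold for the other 5 genes.

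**Figure D1:**
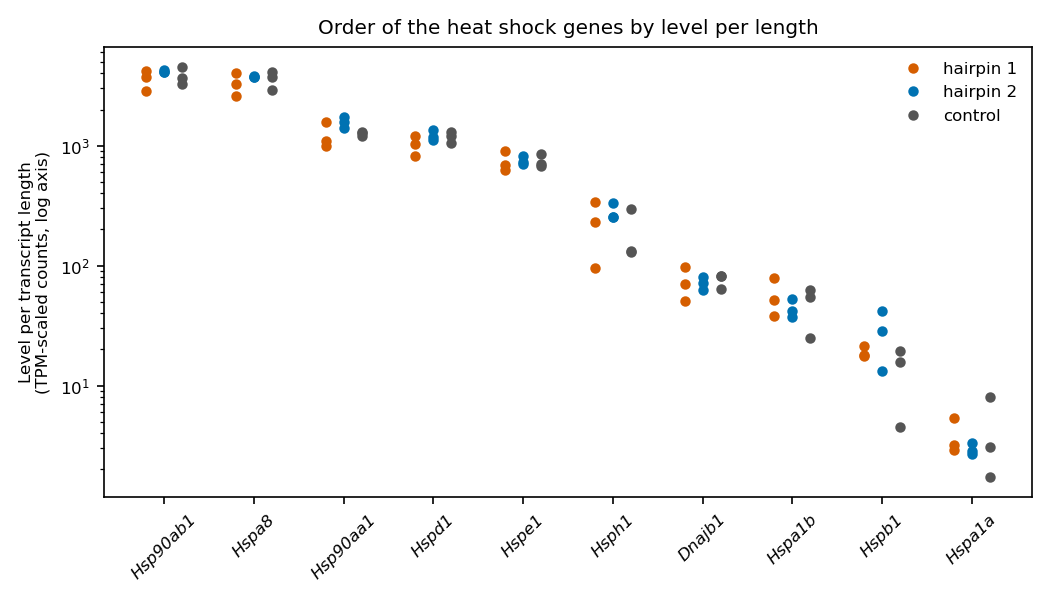
Level per transcript length (TPM-scaled counts, log axis) of each heat shock gene in each of the 9 libraries, 3 points per group, with genes ordered by their mean. Hsp90ab1 and Hspa8 average 3858 and 3543 TPM at the left, and Hspa1a averages 3.70 TPM at the right.

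Hspa1a and Hspa1b encode the stress-inducible cytosolic HSP70 and are neighbours on the minus strand of chromosome 17 (GRCm38 chr17:34969190-34972156 and chr17:34956436-34959238). Their coding parts, of 1926 and 1929 bases, are 99.43% identical, with 8 mismatches and 3 gap columns, while the exon sequence after the coding part is 47.31% identical. Reads from the coding part can therefore be split between them only in part, and how the authors' counting treated such reads is not given in the sources used here. Hspa1a also overlaps Gm20481 on the opposite strand. The 250 bases before their start sites are shown because both copies carry the same inverted pair of heat shock element units, and they differ at 3 positions (98.8% identical). They are from RefSeq (GRCm38.p6, minus strand, chr17:34972157-34972406 and chr17:34959239-34959488), and capitals mark GAANNTTC, 2 inverted units of the element, with its first base 104 bases before the start.
Hspa1a: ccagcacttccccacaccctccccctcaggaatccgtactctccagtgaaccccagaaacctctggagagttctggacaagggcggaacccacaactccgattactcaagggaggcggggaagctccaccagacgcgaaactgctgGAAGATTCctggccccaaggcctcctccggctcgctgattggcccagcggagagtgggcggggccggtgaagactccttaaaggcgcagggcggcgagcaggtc
Hspa1b: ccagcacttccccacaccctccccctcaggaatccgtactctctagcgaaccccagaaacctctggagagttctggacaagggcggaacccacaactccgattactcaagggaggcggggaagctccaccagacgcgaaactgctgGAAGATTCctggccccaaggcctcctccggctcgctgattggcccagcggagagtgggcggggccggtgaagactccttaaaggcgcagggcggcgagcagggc

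Hspa1a had 8.05, 4.51 and 3.79 CPM in the libraries labelled hairpin 1, 3.26, 4.53 and 3.84 CPM in hairpin 2, and 3.998, 11.3 and 2.32 CPM in control. The control group held both the highest library (replicate 2, 173 counts) and the lowest (replicate 3, 39 counts), so the groups overlapped. The log2 fold change was -0.10 ± 0.53 for hairpin 1 and -0.59 ± 0.53 for hairpin 2 (SE, edgeR adjusted p = 1 and 0.637), and without replicate 2 of control it was 0.78 and 0.28. Hspa1b had 53.7, 68.8 and 95.9 CPM in the libraries labelled hairpin 1, 42.7, 67.9 and 53.0 CPM in hairpin 2, and 76.8, 71.6 and 31.1 CPM in control. Its lowest library was again replicate 3 of control, its highest replicate 3 labelled hairpin 1, and no group stood clear of another. The differences were 0.28 ± 0.35 and -0.13 ± 0.35 on the log2 scale (edgeR adjusted p = 1 and 0.891). Of the CPM of both copies, Hspa1b took 86.4% to 96.2% in every library.

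Hspa8 encodes HSC70, the constitutive HSP70 of the cytosol (GRCm38 chr9:40800984-40810087, plus strand), and 3 small nucleolar RNA genes lie within it on the same strand. It had 3139, 3664 and 4220 CPM in the libraries labelled hairpin 1, 3707, 4089 and 4059 CPM in hairpin 2, and 4369, 3240 and 3994 CPM in control. All 3 groups overlapped, and the lowest hairpin 2 library lay below 2 of the 3 control libraries. The log2 fold change was -0.07 ± 0.13 for hairpin 1 and 0.03 ± 0.13 for hairpin 2 (SE, edgeR adjusted p = 1 and 0.935). Per length, Hspa8 exceeded the summed inducible copies in every library, 49.7-fold to 60.0-fold in the libraries labelled hairpin 1, 66.3-fold to 94.7-fold in hairpin 2 and 46.1-fold to 140-fold in control. If counting dropped reads that fit both copies, their sum would be too low and these ratios too high, which was not tested.

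Dnajb1 encodes the J-domain protein that hands substrates to cytosolic HSP70 (GRCm38 chr8:83608193-83612653, plus strand). It had 76.7, 98.4 and 127 CPM in the libraries labelled hairpin 1, 77.1, 111.5 and 97.2 CPM in hairpin 2, and 109, 114 and 86.6 CPM in control. Each control value lay inside the range of the libraries labelled hairpin 1, and the difference was -0.04 ± 0.20 on the log2 scale for hairpin 1 and -0.12 ± 0.20 for hairpin 2 (SE, edgeR adjusted p = 1 and 0.821).

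Hsph1 encodes HSP105, an HSP110-type chaperone that exchanges the nucleotide of HSP70 (GRCm38 chr5:149614287-149636376, minus strand). The 30 bases near its start are shown for the only inverted pair of units in its window (RefSeq GRCm38.p6, chr5:149636351-149636380, minus strand). Capitals mark TTCNNGAA.
Hsph1: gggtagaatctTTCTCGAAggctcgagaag

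Hsph1 had 183, 412 and 563 CPM in the libraries labelled hairpin 1, 395, 584 and 438 CPM in hairpin 2, and 500.5 (replicate 1), 231 and 224 CPM in control. Control held 2 low libraries and 1 high one, and every hairpin 2 library lay above the 2 low ones. The log2 fold change was 0.28 ± 0.46 for hairpin 1 (SE, edgeR adjusted p = 1) and 0.57 ± 0.46 for hairpin 2 (edgeR adjusted p = 0.596, 95% interval -0.49 to 1.63). Without replicate 1 of control these values were 0.76 and 1.05, the second at an edgeR adjusted p of 0.319, in a range of 0.319 to 0.872 over all alternatives.

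Hsp90aa1 and Hsp90ab1 encode the inducible and the constitutive cytosolic HSP90 (GRCm38 chr12:110690605-110702728 and chr17:45567775-45573271, both minus strand). Hsp90aa1 had 1630, 1706 and 2266 CPM in the libraries labelled hairpin 1, 2322, 2389 and 2067 CPM in hairpin 2, and 1878, 1972 and 1756 CPM in control. Every hairpin 2 library lay above every control library, and it was the only one of the 10 genes whose hairpin libraries did not overlap control. Of all genes tested, 10.6% stood clear above control and 10.2% clear below it with hairpin 2, and 4.09% and 4.3% did so in the libraries labelled hairpin 1, so 1 of 10 is close to the background. The log2 fold change was 0.27 ± 0.13 for hairpin 2 against control (SE, edgeR unadjusted p = 0.06, adjusted p = 0.367, 95% interval -0.01 to 0.56). It was -0.0012 ± 0.13 for hairpin 1 (edgeR adjusted p = 1). Without both libraries that stood apart the hairpin 2 difference was 0.21 ± 0.14 (edgeR adjusted p = 0.612), and over all alternatives its adjusted p ran from 0.264 to 0.73.

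Hsp90ab1 had 3630, 4445 and 4635 CPM in the libraries labelled hairpin 1, 4213, 4925 and 4715 CPM in hairpin 2, and 4979, 3872 and 4151 CPM in control. The highest value was in control and the groups overlapped, with log2 fold changes of -0.03 ± 0.13 and 0.09 ± 0.13 (SE, edgeR adjusted p = 1 and 0.772). Per length, Hsp90ab1 exceeded Hsp90aa1 by 2.99 ± 0.37 times in the libraries labelled hairpin 1, 2.67 ± 0.30 times in hairpin 2 and 3.03 ± 0.45 times in control (SD, n = 3 each), so the ratios differed between groups by about 1 SD or less.

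Hspb1 encodes HSP27, a small heat shock protein that holds unfolded protein without using ATP (GRCm38 chr5:135887919-135889563, plus strand). The 250 bases before its start hold 2 inverted pairs of units, 117 and 97 bases before the start (RefSeq GRCm38.p6, chr5:135887669-135887918, plus strand). Capitals mark GAANNTTC.
Hspb1: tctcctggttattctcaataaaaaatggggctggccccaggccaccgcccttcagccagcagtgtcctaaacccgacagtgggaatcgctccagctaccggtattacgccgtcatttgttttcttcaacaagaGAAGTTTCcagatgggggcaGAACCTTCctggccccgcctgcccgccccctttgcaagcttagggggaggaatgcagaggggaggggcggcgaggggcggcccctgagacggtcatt

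Hspb1 had 10.1, 7.94 and 7.20 CPM in the libraries labelled hairpin 1, 5.02, 18.01 and 12.1 CPM in hairpin 2, and 7.997, 6.93 and 1.90 CPM in control. Replicate 2 of hairpin 2 was the highest library and replicate 3 of control the lowest, and replicate 1 of hairpin 2 lay below 2 control libraries. Its log2 fold change was the largest of the 10 genes in both comparisons, 0.58 ± 0.55 for hairpin 1 (SE, edgeR adjusted p = 1) and 1.06 ± 0.55 for hairpin 2 (edgeR unadjusted p = 0.0848, adjusted p = 0.4, 95% interval -0.18 to 2.30). Without both libraries that stood apart the second value was 0.59 ± 0.58 (edgeR adjusted p = 0.75), and over all alternatives the adjusted p ran from 0.238 to 0.797.

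Hspd1 and Hspe1 encode HSP60 and HSP10, the chaperonin ring of the mitochondrial matrix and its lid. They lie head to head on chromosome 1 (GRCm38 chr1:55077835-55088243, minus strand, and chr1:55088132-55091307, plus strand) and their exons overlap on opposite strands, so reads from the overlap cannot be told apart where counting does not use strand. A pseudogene, Hspd1-ps3, had 214 to 387 counts in each library. A stretch in the RefSeq windows of both genes holds 3 overlapping inverted pairs of units over 18 bases. They form an unbroken array longer than 3 units, in which 2 runs of 3 inverted units overlap. The stretch lies outside the exon overlap, inside the annotated span of Hspd1 and before the annotated start of Hspe1. Its 30 bases are printed from either gene's side (RefSeq GRCm38.p6, chr1:55088053-55088082). Capitals mark the overlapping matches of TTCNNGAA and GAANNTTC.
Hspd1: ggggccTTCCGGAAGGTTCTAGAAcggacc
Hspe1: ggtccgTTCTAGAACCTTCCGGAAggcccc

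Hspd1 had 1001, 1171 and 1274 CPM in the libraries labelled hairpin 1, 1333, 1305 and 1221 CPM in hairpin 2, and 1385, 1206 and 1299 CPM in control. Hspe1 had 269.5, 231 and 302 CPM in the libraries labelled hairpin 1, 259, 251 and 255 CPM in hairpin 2, and 289, 248 and 242 CPM in control. Both were among the least variable of all genes tested, with an SD of log2 CPM over the libraries at the 13.1 and 9.16 percentile. Genes were not matched by level for this, and Hspd1 and Hspe1 were at the 99.6 and 95.5 percentile of mean CPM. Values of both genes overlapped between all groups. For Hspd1 the log2 fold change was -0.17 ± 0.11 for hairpin 1 and -0.01 ± 0.11 for hairpin 2 (SE, edgeR adjusted p = 1 and 0.97). For Hspe1 it was 0.04 ± 0.12 and -0.03 ± 0.12 (edgeR adjusted p = 1 and 0.939). Hspd1 exceeded Hspe1 per length by 1.19 to 1.72 times over the libraries.

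**Figure D2:**
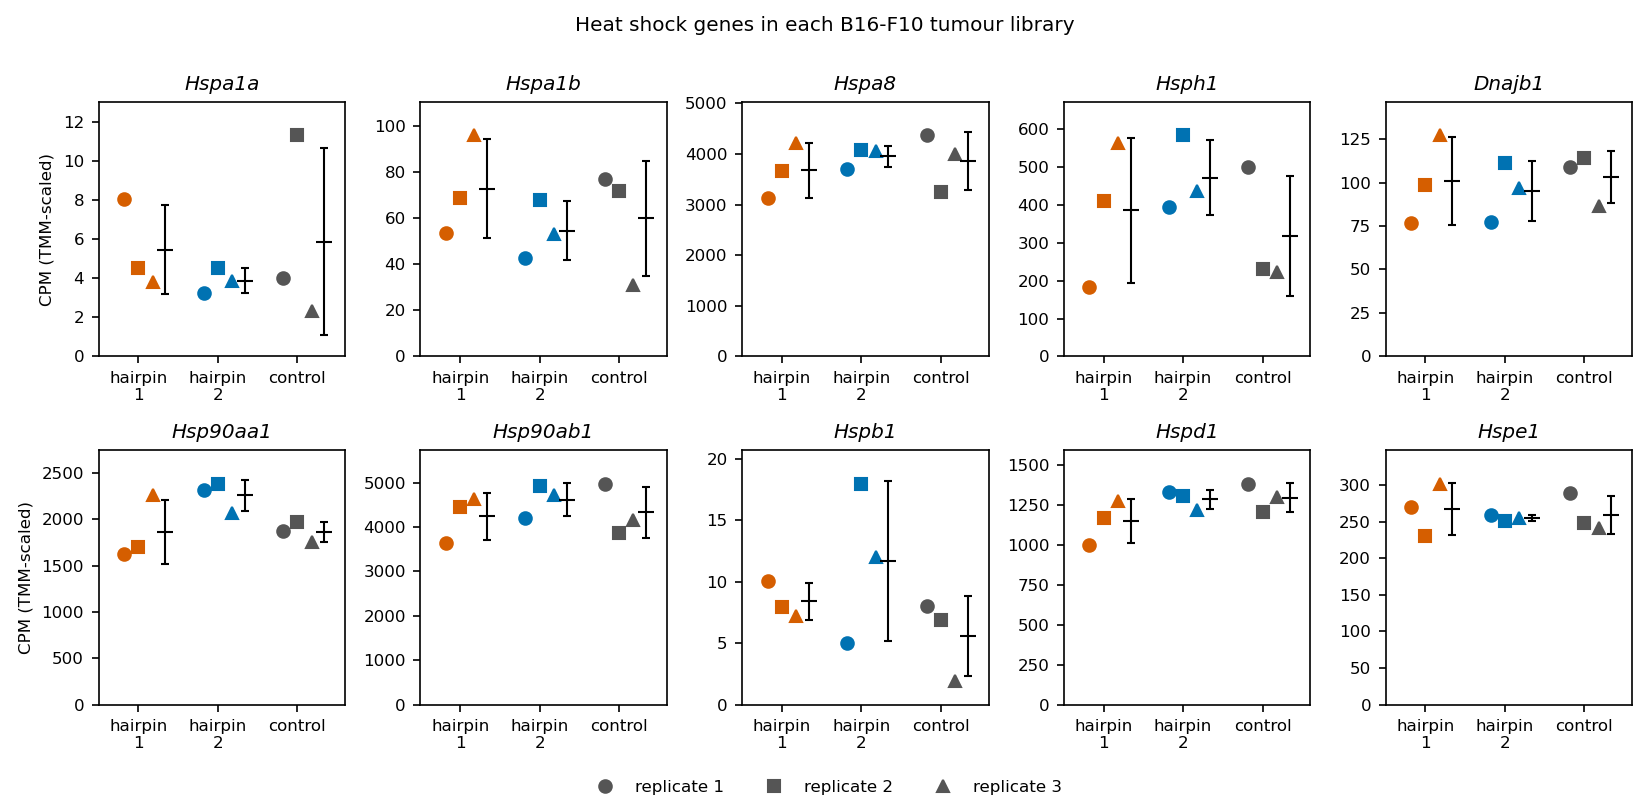
CPM (TMM-scaled) of each heat shock gene in each library, with replicates as symbols and the group mean ± SD (n = 3) beside them, and each vertical axis starting at 0. Every hairpin 2 library of Hsp90aa1 (2067 to 2389 CPM) lies above the control libraries (1756 to 1972 CPM), and the groups overlap in the other 9 panels.

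The element letters were searched in the 250 bases before the start on both strands, as GAANNTTC or TTCNNGAA, which can overlap each other. Of the 10 genes, 7 matched a RefSeq window, and 6 of these 7 held a match in at least 1 window, against 14.5% of the 27025 genes with a window. Counted by window, 7 of their 10 windows held a match, against 12.84% of the 32851 windows of all genes. The matches of Hspd1 and Hspe1 lie on the same bases, so they are 1 stretch counted for both. The runs of 3 units (GAANNTTCNNGAA or TTCNNGAANNTTC) were in the windows of Hspd1 and Hspe1, in that same stretch, and in 0.514% of all genes. The windows of Dnajb1 held none of these letters. Hsp90aa1, Hsp90ab1 and Hspa8 were not matched. The windows of Hspa1a and Hspa1b are near-identical, so the 6 genes with a match are not 6 separate cases. Starts were those of RefSeq. By the annotated gene coordinates given above, the matches of Hsph1 and Hspd1 lie inside the gene, past its annotated start. The other window of Hspd1 held no match. A match describes the letters and is not a measured binding site.

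None of the 10 genes differed between groups at the threshold. At an edgeR adjusted p under 0.05, 0 of 10 were called for hairpin 1 against control, for hairpin 2 against control, for the mean of both hairpins against control, and for hairpin 2 against hairpin 1. In each of these 4 comparisons the share of all 14193 genes called was 0%. At an unadjusted p under 0.05, edgeR gave 0 of the 10 genes in each comparison, against 3.17%, 14.4%, 7.29% and 11.7% of all genes in the same order. DESeq2 called 0, 303, 8 and 89 of all genes (0%, 2.13%, 0.0564% and 0.627%) and limma-voom 0, and neither called any of the 10.

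The median log2 fold change of the 10 genes was -0.02 for hairpin 1 and 0.01 for hairpin 2, and that of all genes tested 0.01 in both. Of the 10, 4 had a positive value for hairpin 1 and 5 for hairpin 2, against 52.6% and 51.5% of all genes. Both hairpin comparisons share the 3 control libraries, so their values are not independent. For the mean of both hairpins 6 of 10 were positive, against 52.2% of all genes, the largest values were 0.82 for Hspb1, 0.42 for Hsph1 and -0.35 for Hspa1a, and the lowest edgeR adjusted p of the 10 was 0.74.

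Hairpin 2 was also set against the libraries labelled hairpin 1 directly. The median over the 10 genes was 0.11, against 0.0011 for all genes, and 6 of 10 were positive, against 50.2% of all genes. Hsp90aa1 had the smallest p (0.27 ± 0.13 SE, edgeR unadjusted p = 0.059, adjusted p = 0.443, 95% interval -0.01 to 0.56). Leaving out replicate 3 labelled hairpin 1 gave 0.44, and leaving out both libraries that stood apart gave 0.14. No gene of the 10 stood clear of the libraries labelled hairpin 1, while 8.31% of all genes did so above and 7.67% below. Hspa1a and Hspa1b had -0.49 ± 0.53 and -0.42 ± 0.35 (edgeR adjusted p = 0.733 and 0.662), and Hspb1 had 0.48 ± 0.54 (adjusted p = 0.746).

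The precision differed between the genes. The 95% intervals for hairpin 2 against control ran from -0.25 to 0.23 for Hspd1, from -0.28 to 0.23 for Hspe1, from -0.27 to 0.33 for Hspa8 and from -0.19 to 0.37 for Hsp90ab1. For Hspa1a the interval ran from -1.78 to 0.59 and for Hspa1b from -0.93 to 0.67. The differences of these inducible copies were thus estimated less precisely than those of the genes above. Interval widths reflect the spread among libraries as well as counting. That of Hsph1 (-0.49 to 1.63) was wider than that of Hspa1b, although Hsph1 had more counts in every library. The p-values that missed the threshold do not show that levels were equal.

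**Figure D3:**
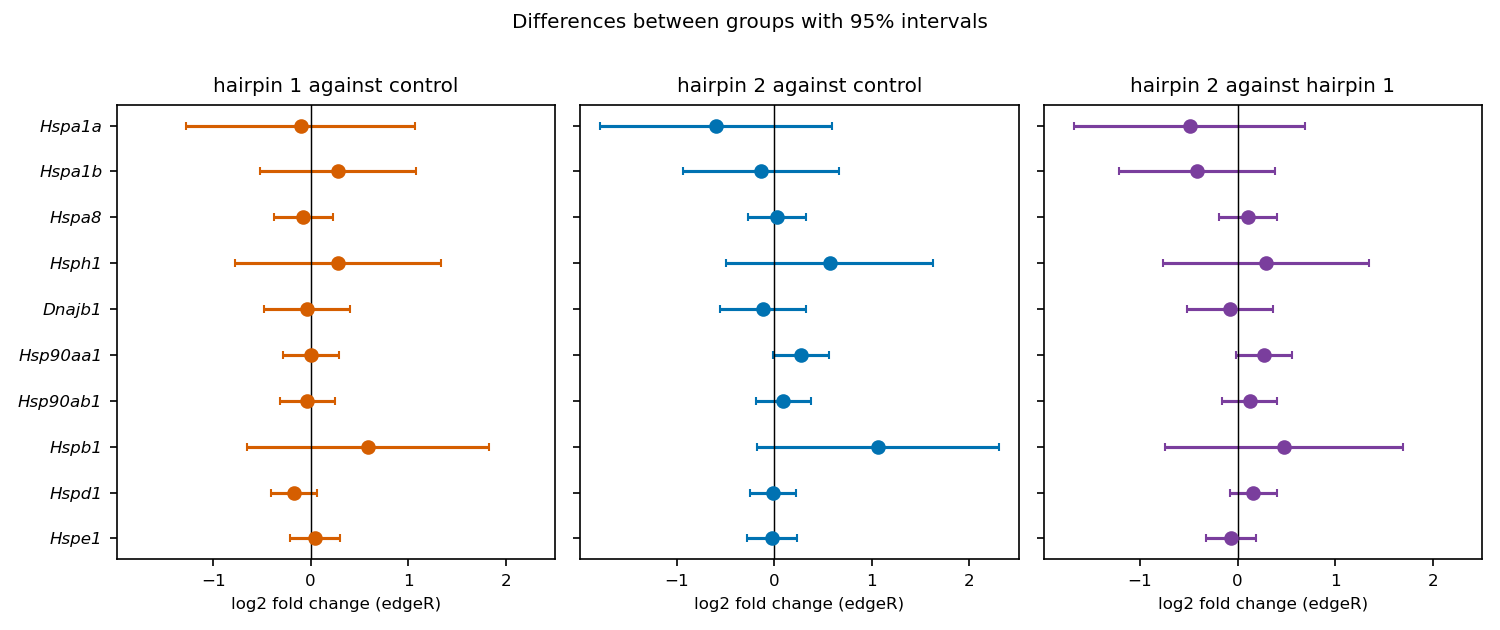
Log2 fold change (edgeR) of each heat shock gene in the comparisons of hairpin 1 with control, hairpin 2 with control and hairpin 2 with hairpin 1, with 95% intervals as bars. The intervals of all 10 genes include 0 in each panel, and those of Hspa1a, Hspa1b, Hsph1 and Hspb1 are the widest.

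The joint level of the 10 genes varied within each group. The mean of their standardised log2 CPM was -0.82, -0.24 and 0.79 SD units in the libraries labelled hairpin 1, -0.22, 0.68 and 0.16 in hairpin 2, and 0.63, -0.12 and -0.86 in control. Each group thus held libraries above and below the mean of all 9. Replicate 1 labelled hairpin 1, which stood apart on the first principal component, held the lowest value of Hsph1, Dnajb1, Hsp90aa1, Hsp90ab1, Hspa8 and Hspd1, and replicate 3 of control that of Hspa1a, Hspa1b and Hspb1.

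**Figure D4:**
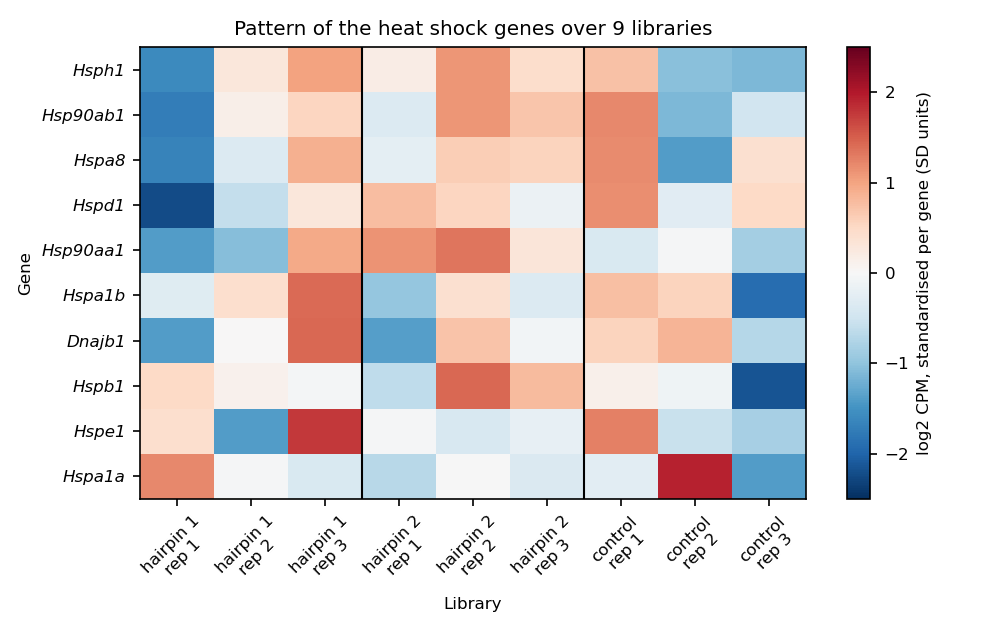
Standardised log2 CPM (SD units per gene) of the heat shock genes, genes in rows and libraries in columns, with lines between the groups. Hsph1, Dnajb1, Hsp90aa1, Hsp90ab1, Hspa8 and Hspd1 are lowest in replicate 1 labelled hairpin 1, and Hspa1a is highest in replicate 2 of control.

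Of the 45 pairs among the 10 genes, 37 had a positive Pearson r over the 9 libraries and 8 a negative one, 6 of these with Hspa1a, and the median r was 0.37. These pairs share libraries and scaling, so they are a description. The highest were Hsph1 with Hsp90ab1 (r = 0.92) and Hsp90ab1 with Hspa8 (r = 0.91). For 6 pairs chosen by function a permutation test was run, with adjustment over the 6. Hspa1b and its partner Dnajb1 had r = 0.80 (exact permutation p = 0.00935, adjusted 0.0561) and Spearman's rho = 0.80 (exact p = 0.0138, adjusted 0.083). Without the 2 libraries farthest from the median r was 0.84 (adjusted exact p = 0.0875), and with group means subtracted it was 0.87 (exact p = 0.00926 over the 216 arrangements within groups, adjusted 0.0556).

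Hspa1a and Hspa8 had r = -0.75 (exact permutation p = 0.0204, adjusted 0.0612) and rho = -0.43 (exact p = 0.25, adjusted 0.324). This relation rested on replicate 2 of control and replicate 1 labelled hairpin 1, without which r was 0.069. The other 4 pairs gave r = 0.67 for Hsph1 and Hsp90aa1 (rho = 0.67), 0.50 for Hsp90aa1 and Hsp90ab1 (rho = 0.48), 0.43 for Hspa1a and Hspa1b (rho = 0.42) and 0.17 for Hspd1 and Hspe1 (rho = 0.30). Their adjusted exact permutation p ran from 0.107 to 0.655 for r and from 0.177 to 0.437 for rho. Without the 2 libraries farthest from the median these r were 0.36, 0.04, 0.80 and 0.37 in the same order.

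Outside the 10 genes, those most like their mean pattern over the 9 libraries by Pearson r were Dhx30 (0.95), Zfp773 (0.93), Gm7535 (0.93), Ppp1r12c (0.92) and Dnajb2 (0.92), a neuronal and ubiquitin-linked J-domain protein. Those most like the summed Hspa1a and Hspa1b level were BC005624 (0.90), Kcnu1 (0.90), Ddo (0.89), Xrcc1 (0.88) and Plk-ps1 (0.87). These are the highest of 14193 values and are a description only.

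The other genes of the chaperone network were read from 11 lists with 110 genes, of which 106 were tested and Hsf5, Hspa1l, Hspb3 and Hspb7 were not. By edgeR, 0 of 106 were called in any of the 4 comparisons. At an unadjusted p under 0.05, 0 were higher and 1 lower for hairpin 1 (1.85% and 1.32% of all genes), and 7 were higher and 10 lower for hairpin 2 (8.14% and 6.27% of all genes). In both directions together that is 0.9% of the tested list genes for hairpin 1 and 16.0% for hairpin 2. DESeq2 called 1 of the 106, Hspa4l, for hairpin 2, against 2.13% of all genes, and limma-voom called 0. Hspa4l, an HSP110 relative of Hsph1 known from the testis, had 24.9, 30.6 and 42.6 CPM in the libraries labelled hairpin 1, 38.3, 53.7 and 48.4 CPM in hairpin 2, and 28.6, 27.25 and 24.15 CPM in control. Every hairpin 2 library lay above every control library, as for 10.6% of all genes. The log2 fold change of Hspa4l was 0.81 ± 0.20 (SE, edgeR adjusted p = 0.241, DESeq2 adjusted p = 0.0199). Over all alternatives its adjusted p ran from 0.0199 to 0.646, and with the length trend removed the difference was 0.48 ± 0.16. It was picked out after its values were seen.

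Among the regulators, 4 of 5 genes of the HSF family were tested and their median log2 fold change was -0.05 for hairpin 1 and -0.06 for hairpin 2. Hsf1, the master activator of the heat shock genes, averaged 72.8 ± 6.80 CPM in the libraries labelled hairpin 1, 70.1 ± 0.54 CPM in hairpin 2 and 81.6 ± 9.48 CPM in control (SD, n = 3 each; edgeR adjusted p = 1 and 0.394). Hsbp1, which binds HSF1, and Hsf4, known from the lens, had -0.15 to 0.11 in both comparisons.

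The partners of HSP70 had medians near 0. The 7 tested genes of the other HSP70 and HSP110 list had a median of 0.0045 for hairpin 1 and 0.09 for hairpin 2, and the most abundant of them, the HSP110 gene Hspa4, had -0.11 ± 0.09 and 0.07 ± 0.09 (SE, edgeR adjusted p = 1 and 0.784). The 13 J-domain genes had medians of -0.06 and -0.07. Dnaja1 and Dnaja2, co-chaperones of HSC70, had 0.05 and -0.10 for hairpin 1 and 0.155 and -0.07 for hairpin 2. The 10 exchange factors and adaptors had medians of -0.0087 and -0.07, and Stip1, which links HSP70 to HSP90, averaged 329 ± 51.6 CPM in the libraries labelled hairpin 1, 323 ± 19.6 CPM in hairpin 2 and 342 ± 34.3 CPM in control.

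The 14 HSP90 co-chaperones had medians of -0.05 for hairpin 1 and -0.05 for hairpin 2. Fkbp4, an immunophilin of steroid receptor complexes, averaged 1147 ± 134 CPM in the libraries labelled hairpin 1, 1299 ± 304 CPM in hairpin 2 and 1201 ± 41.5 CPM in control. Cdc37, which brings kinases to HSP90, had -0.03 ± 0.10 and -0.08 ± 0.10 (SE, edgeR adjusted p = 1 and 0.773). The 8 subunits of the cytosolic chaperonin, which folds actin and tubulin, had medians of -0.0097 and -0.08, with Cct5, Cct7 and Cct8 between -0.16 and 0.02.

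Of 7 small heat shock protein genes other than Hspb1, 5 were tested, with a median log2 fold change of 0.11 for hairpin 1 and -0.52 for hairpin 2. Cryab, the alpha-B crystallin gene and the most abundant of them, had 231, 175 and 182 CPM in the libraries labelled hairpin 1, 140, 75.3 and 178 CPM in hairpin 2, and 180, 218 and 182 CPM in control. The hairpin 2 libraries lay below all control libraries, and 10.2% of all genes did so. The log2 fold change was 0.02 ± 0.27 for hairpin 1 and -0.56 ± 0.27 for hairpin 2 (SE, edgeR adjusted p = 1 and 0.375). Hspb6 and Hspb2, known from muscle, had -0.52 ± 0.23 and -0.67 ± 0.31 for hairpin 2 (adjusted p = 0.33 and 0.36).

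In the mitochondrion, the 13 other chaperones and proteases had medians of -0.02 and -0.14. Hspa9, the matrix HSP70 that feeds the Hspd1 chaperonin, averaged 466 ± 85.8 CPM in the libraries labelled hairpin 1, 443 ± 40.5 CPM in hairpin 2 and 462 ± 30.01 CPM in control (SD, n = 3 each). Lonp1, a matrix protease, had 0.10 ± 0.09 and -0.15 ± 0.09, and Trap1, the mitochondrial HSP90, had 0.16 ± 0.15 and 0.05 ± 0.15 (SE, edgeR adjusted p from 0.435 to 1). In the endoplasmic reticulum, the 12 chaperones had medians of 0.04 and 0.07, and Hspa5, its HSP70, had 0.04 ± 0.13 and 0.07 ± 0.13 (adjusted p = 1 and 0.837).

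The 9 genes listed here as other HSF1 targets had medians of 0.04 and -0.09, and whether HSF1 drives them in these tumours was not tested. Serpinh1, the collagen chaperone, had 0.04 ± 0.10 and 0.02 ± 0.10, and the polyubiquitin gene Ubb had 0.02 ± 0.12 and -0.30 ± 0.12 (SE, edgeR adjusted p = 1 and 0.301). The 11 immediate early genes, which rise quickly when tissue is handled or stressed, had medians of 0.155 and -0.23. Of the 11, 8 were positive for hairpin 1 and 3 for hairpin 2, against 52.6% and 51.5% of all genes. The most abundant, Jun and Jund, had -0.25 ± 0.58 and 0.23 ± 0.27 for hairpin 1. For hairpin 2 they had -0.33 ± 0.59 and -0.41 ± 0.28 (SE, edgeR adjusted p = 0.831 and 0.515). Fos averaged 68.8 ± 69.8 CPM in the libraries labelled hairpin 1, 65.6 ± 42.9 CPM in hairpin 2 and 62.0 ± 58.8 CPM in control (SD, n = 3 each).

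**Figure D5:**
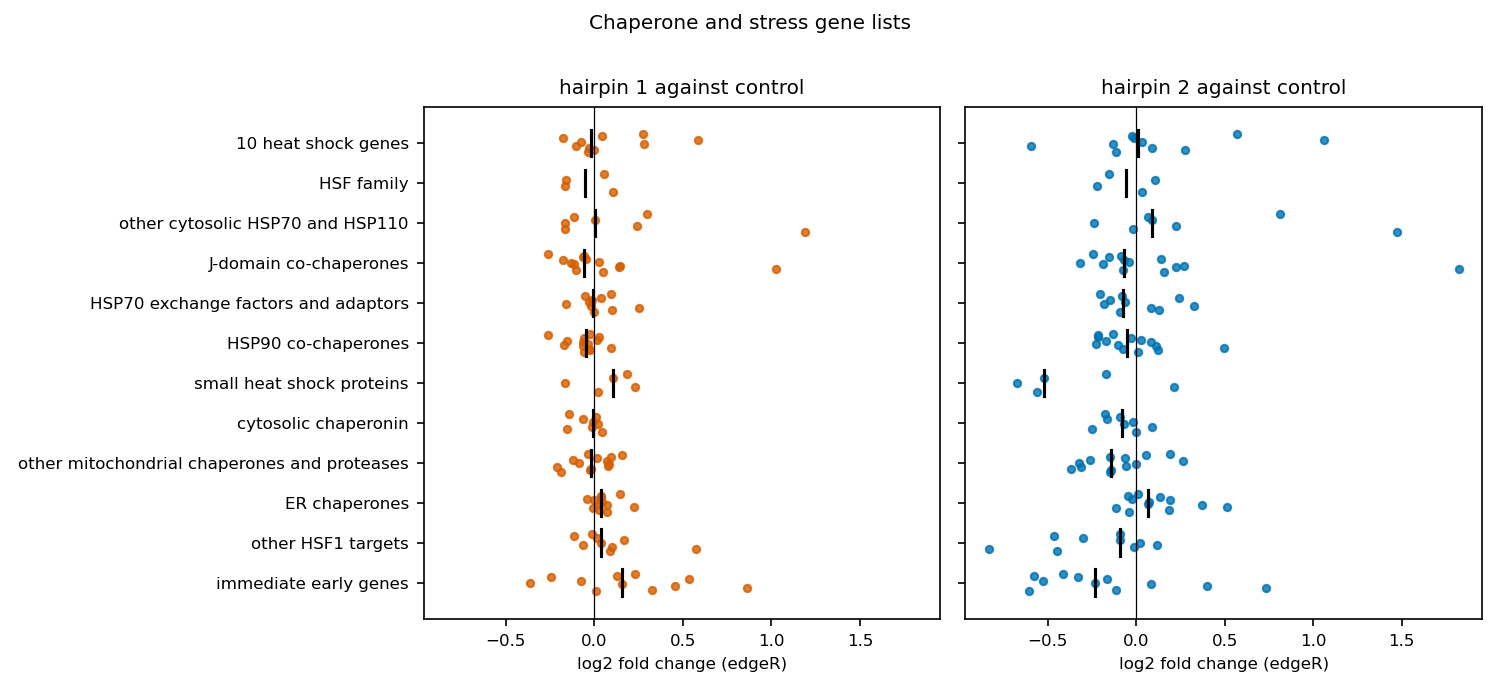
Log2 fold change (edgeR) of each tested gene of the 10 heat shock genes and the 11 chaperone and stress lists, for hairpin 1 and hairpin 2 against control, with a black bar at each list's median. Medians lie between -0.06 and 0.155 for hairpin 1, and between -0.52 (small heat shock proteins) and 0.09 for hairpin 2.

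Markers of host cells varied between libraries beside these values. The summed level of 6 fibroblast markers was 239 to 3231 CPM in the libraries labelled hairpin 1, 262 to 1367 CPM in hairpin 2 and 161 to 389.5 CPM in control. For 9 leukocyte markers it was 114 to 388.5 CPM, 40.4 to 439 CPM and 110 to 304 CPM in the same order, for 5 endothelial markers 566 to 659 CPM, 487 to 607 CPM and 567 to 630.3 CPM, and for 5 erythroid markers 1033 to 1489 CPM, 421 to 21460 CPM and 2539 to 4967 CPM. The 6 skeletal muscle markers summed to 2.525 to 9.69 CPM, 2.56 to 15.6 CPM and 2.61 to 9.34 CPM, with Tnnc2 at 0 in every library and Ckm and Myh4 at 0 in replicate 2 of hairpin 2 and replicate 2 of control. The T cell marker Cd3e was at 0 in replicate 2 of hairpin 2 and the fibroblast marker Lum in replicate 1 of control. Their part in the values of the heat shock genes was not tested, and in bulk tissue fewer cells of a type and less RNA per cell cannot be told apart. Log2 fold changes for hairpin 2 were also higher for longer transcripts across 14109 genes (Spearman's rho = 0.39 as a description, against -0.02 for hairpin 1). Hspe1 (774 bases) and Hspb1 (930 bases) are among the shortest genes, at the 5.74 and 8.21 percentile of length, and with the length trend removed their hairpin 2 values were 0.10 and 1.19.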

How the data were processed

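Per the labels' protocols, TRIzol-extracted RNA was sequenced on a NovaSeq. Each of 9 deposited tables gives the authors' whole-number counts per gene symbol for 1 library. Per the submitters' processing notes, the tools included STAR 2.7.0d and Cufflinks, and the builds listed were GRCh38 and hg38, which are human, although the symbols are of mouse genes. The counter, annotation and strand setting were not given in the sources used here. Samples were grouped by title, because the genotype labels of the hairpin samples count upwards from FBXO38. Library totals set the counting precision. Chi-square per degree of freedom was 19.1 to 65.9 between libraries of a group and 9.87 to 110 across groups, lowest for replicate 3 labelled hairpin 1 with replicate 1 of control. None was treated as a repeat deposit.

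Counts were filtered with filterByExpr (minimum count 10, minimum total 15) and tested with edgeR 4.0.16 (R 4.3.3, TMM, robust quasi-likelihood, all 9 libraries in 3 groups). Adjustment was by Benjamini-Hochberg over 14193 genes, with a threshold of 0.05, and the steps were tested on simulated counts. Alternatives were other scalings, no filter, DESeq2 1.42.0, limma-voom (limma 3.58.1), only the groups compared, a replicate block, no robust option, the length trend removed and each library left out. Leaving out both libraries that stood apart was added after seeing the data. Coordinates and lengths are from GENCODE M21 (GRCm38), which holds 98.8% of symbols. Log2 CPM used a prior count of 2.

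The genes, lists and tests were chosen with earlier results of these data known. The text names the 10 genes, up to 3 genes of each list by mean CPM or past the threshold, and the 5 genes most like each of 2 patterns. Genes picked by their values are said to be so, and Cryab, Hspb6 and Hspb2 fall under the rule by CPM.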

Additional observations from a re-analysis of the deposited data

How the results depend on the processing

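Under all 19 alternatives of each comparison that could be fitted, 0 of the 10 heat shock genes passed an adjusted p of 0.05, and the adjusted p of the 10 ran from 0.913 to 1 for hairpin 1, 0.238 to 1 for hairpin 2, 0.559 to 1 for their mean and 0.282 to 0.997 for hairpin 2 against hairpin 1. The fit of only the groups compared was not run for the mean. Of 750 recomputed differences 66 changed sign, and 20 moved by more than the SE of the value reported. Leaving out each library in turn gave Hspa1a log2 fold changes of -0.52 to 0.78 for hairpin 1, -0.98 to 0.28 for hairpin 2 and -0.73 to 0.53 for their mean, the highest without replicate 2 of control. It gave Hspa1b -0.24 to 0.30 for the mean (lowest without replicate 3 of control) and Dnajb1 -0.24 to 0.12 for hairpin 2 against hairpin 1 (highest without replicate 3 labelled hairpin 1). Removing the length trend turned Hspe1 to 0.096 for hairpin 2 against control and 0.096 against hairpin 1. Without both libraries that stood apart, Hsph1 was -0.23 and Hsp90ab1 -0.028 for hairpin 2 against hairpin 1. The correlation of Hspa1a and Hspa8 was 0.069 without the 2 farthest libraries. The causes were not tested.

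No pairing by replicate number was seen. Deviations from group means had r of -0.41 to 0.14 for same-numbered libraries and -0.41 to 0.51 for others. The labels do not say whether the numbers mark pairs, and with 3 libraries a group a modest shared effect could be missed. With a replicate block 0 of the 10 genes were called in each of the 4 comparisons, and 287, 1498, 701 and 1141 genes had an unadjusted p under 0.05, against 450, 2046, 1034 and 1655 without it. Over all genes 0 passed with the block. Without the filter 4 genes passed for hairpin 2 and 2 for hairpin 2 against hairpin 1, none of them in the chaperone lists, and leaving out replicate 1 of hairpin 2 gave 2 and 1. DESeq2 called 303, 8 and 89 genes for hairpin 2, the mean and hairpin 2 against hairpin 1, where edgeR called 0. These were 2.13%, 0.0564% and 0.627% of all genes, and 1 of those for hairpin 2, Hspa4l, was in the chaperone lists. For hairpin 2 the SE was 0.53 for Hspa1a (39 to 173 counts a library), 0.55 for Hspb1 (32 to 302) and 0.46 for Hsph1 (3091 to 9796).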
